A study of Mus musculus with 2 samples.

Results

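Transcripts of 8 genes of extracellular purine signalling were followed in Control and *Fak*-deleted Th17 cells, *Fak* being the gene of focal adhesion kinase. The genes were taken by their symbols from the 23282 gene rows of each count table, and all 8 were present in both tables: *Entpd1*, *Nt5e*, *Ada*, *Adora2a*, *Adora2b*, *P2rx4*, *P2rx7* and *P2ry10*. Naïve CD4 T cells from spleens of *Fak* fl/fl mice received either a control retrovirus without Cre (Control) or RV-Cre, a retrovirus that carries Cre recombinase and so deletes the floxed part of *Fak*. Both cultures were stimulated with plate-bound anti-CD3ε at 10 μg/ml and soluble anti-CD28 at 5 μg/ml and held for 3 days in IL-6 at 50 ng/ml, human TGFβ1 at 1 ng/ml, TNF-alpha at 1 ng/ml and IL-1beta at 2 ng/ml, with antibodies to IFNgamma and IL-4 at 5 μg/ml each, before GFP+ cells were sorted. The mice were young females according to the study's methods. Floxed alleles, stimulation, viral infection and sorting were thus shared by both libraries, although the submitters wrote WT as the genotype of the Control sample. Cre came from the virus rather than from a T cell promoter. As cells that received Cre but kept *Fak* were not analysed here, Cre activity and loss of *Fak* cannot be told apart.

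ATP that leaves activated or damaged cells is a danger signal, and its breakdown product adenosine restrains T cells. On the cell surface CD39, encoded by *Entpd1*, converts ATP and ADP to AMP, and CD73, encoded by *Nt5e*, converts AMP to adenosine, which adenosine deaminase (*Ada*) turns into inosine. ATP opens the P2X4 and P2X7 ion channels, whereas adenosine acts on the receptors encoded by *Adora2a* and *Adora2b*, which raise cyclic AMP. CD39 and CD73 are known from regulatory T cells and also from Th17 cells grown in IL-6 and TGFβ. The receptor encoded by *P2ry10* carries a purine receptor name by sequence but responds to lysophosphatidylserine, a lipid.

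There was 1 library per condition, so no difference has a replicate check, no test was run across genes and the values compare these libraries. Counted reads came to 13799264 in the Control library and to 12305010 in the RV-Cre library. *Ptk2*, the symbol for *Fak*, had 110 reads in Control cells and 31 in RV-Cre cells, and the ratio was 0.318 with a 95% interval from 0.206 to 0.477. The kit reads transcripts near their 3′ ends and where the loxP sites lie is not given in the sources used here, so this count by itself does not check the deletion. For such Th17 cultures the paper measured *Fak* transcript by RT-qPCR and FAK protein by immunoblot in sorted GFP+ cells. The interval given for *Ptk2* and for ratios below is an exact Clopper-Pearson interval on the split of reads after TMM scaling, and it covers counting error only. A gene was called higher or lower when the log2 ratio of its normalized reads, with 1 added, was at least 1 in size, which is 2-fold, and its log2 value reached 4 in 1 or both libraries. By this rule 14.2% of the 12112 genes past the minimum were higher and 12.3% were lower in the RV-Cre library. All 8 T cell markers found in the tables passed the minimum, and 2 of them were called higher and 0 lower. Of the 9 Th17 markers that passed, 4 were called lower and 0 higher. Markers of cells that the isolation of naïve CD4 T cells should remove were also present. The 8 markers of red cells and platelets summed to 120 normalized reads in Control cells and 433 in RV-Cre cells, the 7 B cell markers found to 62.1 and 141, the 11 myeloid markers found to 240 and 651, the 8 markers of CD8 T and NK cells to 950 and 1618, and the 8 dendritic cell markers to 315 and 517. The marker of most reads was *Hba-a1* (30 and 165) for red cells and platelets, *Marco* (5 and 289) for myeloid cells, *Nkg7* (492 and 615) for CD8 T and NK cells and *H2-Ab1* (249 and 413) for dendritic cells. *Pax5*, *Clec9a* and *Cd209a* had 0 reads in both. Each of these sums was higher in the RV-Cre library, but not each marker. Of the markers past the minimum, 5 of 6 for red cells and platelets and 3 of 5 for B cells were called higher and 0 lower, whereas 2 of 9 myeloid markers and 2 of 5 for CD8 T and NK cells were higher and 1 of each lower, and of 4 dendritic cell markers 0 were higher and 1 lower. Without *Marco* and *Csf1r*, left out after their values were seen, the myeloid sum was 220.3 and 227 normalized reads, and without *H2-Ab1* the dendritic cell sum was 81.0 and 78.6. Lower markers included *Lyz2* (22 and 7 reads), *Klrk1* (41 and 9) and *Itgax* (27 and 1). These reached the minimum only in the Control library. The 3 higher B cell markers, *Hbb-bs*, *Alas2*, *Ppbp* and *Marco* reached it only in the RV-Cre library. Each of these could thus be called in 1 direction only. The 2 higher markers of CD8 T and NK cells were *Cd8a* (322 and 580 reads) and *Cd8b1* (122 and 274). The part of such cells in the differences of the 8 genes was not tested.

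The genes called lower were *Entpd1* and *Ada*, and the promoter sequences of these are shown with the promoter of *P2ry10* that held the rarest of the motifs searched. The sequences are the 250 bases before annotated starts (RefSeq, GRCm38.p6), written 5′ to 3′ on the strand of the gene. A promoter was found for 7 of the 8 genes and none for *Adora2a*. The motifs searched on both strands were STAT (TTCNNNGAA), κB (GGGA, any base, TT, any base, CC), CRE (TGACGTCA) and HRE (ACGTG), which do not contain each other, and a match is in capitals. Matches were searched because STAT and NF-κB factors act in Th17 cells, cyclic AMP acts through CRE sites and hypoxia through HRE sites.
*Entpd1* upstream start, chr19:40612116-40612365, + strand: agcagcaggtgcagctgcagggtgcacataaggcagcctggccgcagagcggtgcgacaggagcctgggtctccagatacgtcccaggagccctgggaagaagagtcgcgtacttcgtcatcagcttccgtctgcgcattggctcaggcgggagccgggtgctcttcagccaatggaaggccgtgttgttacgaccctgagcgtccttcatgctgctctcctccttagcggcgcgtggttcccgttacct
*Entpd1* downstream start, chr19:40659520-40659769, + strand: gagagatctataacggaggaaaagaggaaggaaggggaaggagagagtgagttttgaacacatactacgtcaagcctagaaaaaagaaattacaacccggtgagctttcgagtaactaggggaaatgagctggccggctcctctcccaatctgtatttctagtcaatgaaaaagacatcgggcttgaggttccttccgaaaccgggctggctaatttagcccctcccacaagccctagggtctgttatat
*Ada*, chr2:163750240-163750489, - strand: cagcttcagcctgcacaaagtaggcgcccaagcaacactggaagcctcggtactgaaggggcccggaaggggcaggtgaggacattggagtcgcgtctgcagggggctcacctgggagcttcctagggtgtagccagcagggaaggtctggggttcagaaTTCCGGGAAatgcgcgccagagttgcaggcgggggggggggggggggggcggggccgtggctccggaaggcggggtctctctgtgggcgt
*P2ry10* downstream start, chrX:107089083-107089332, + strand: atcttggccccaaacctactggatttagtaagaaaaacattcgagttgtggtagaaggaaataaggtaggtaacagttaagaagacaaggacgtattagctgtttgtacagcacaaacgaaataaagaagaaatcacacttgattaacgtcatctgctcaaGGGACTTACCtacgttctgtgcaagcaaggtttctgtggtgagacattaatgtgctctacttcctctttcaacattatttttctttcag

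The *Ada* promoter held the STAT match TTCCGGGAA, which begins at position -90 from the start, and 7.02% of the 32851 promoter windows held such a match. The downstream *P2ry10* promoter held the κB match GGGACTTACC, which begins at position -89 from the start, and 0.980% of windows held one. The upstream *P2ry10* promoter, not shown, held an HRE match, as did 16.6% of windows. Neither *Entpd1* window held any of these letters, and CRE, found in 1.55% of windows, occurred in none of the promoters of the 7 genes. A match describes the sequence and is not evidence that a factor binds there. The *Entpd1* windows differed in base composition, with 62.4% and 47.2% G and C and 18 and 8 CpG dinucleotides, and the *Ada* window had 67.2% and 14.

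*Entpd1* changed most among the 8 genes. It lies on chromosome 19 from 40612366 to 40741602 on the + strand (GENCODE M21, GRCm38) and had 461 reads in Control cells and 47 in RV-Cre cells, that is, 434 and 49.9 normalized reads. The Control library was the high one, and the counting intervals of the levels, 395 to 475 and 36.7 to 66.4, lay far apart. The level in the RV-Cre library was 8.69-fold lower, with a ratio of 0.115 (95% interval from 0.0833 to 0.156) and a log2 ratio of -3.09. Only 1.02% of the genes past the minimum had a lower log2 ratio. Because the libraries are bulk RNA, fewer cells with *Entpd1* and less *Entpd1* RNA per cell cannot be told apart.

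**Figure D1:**
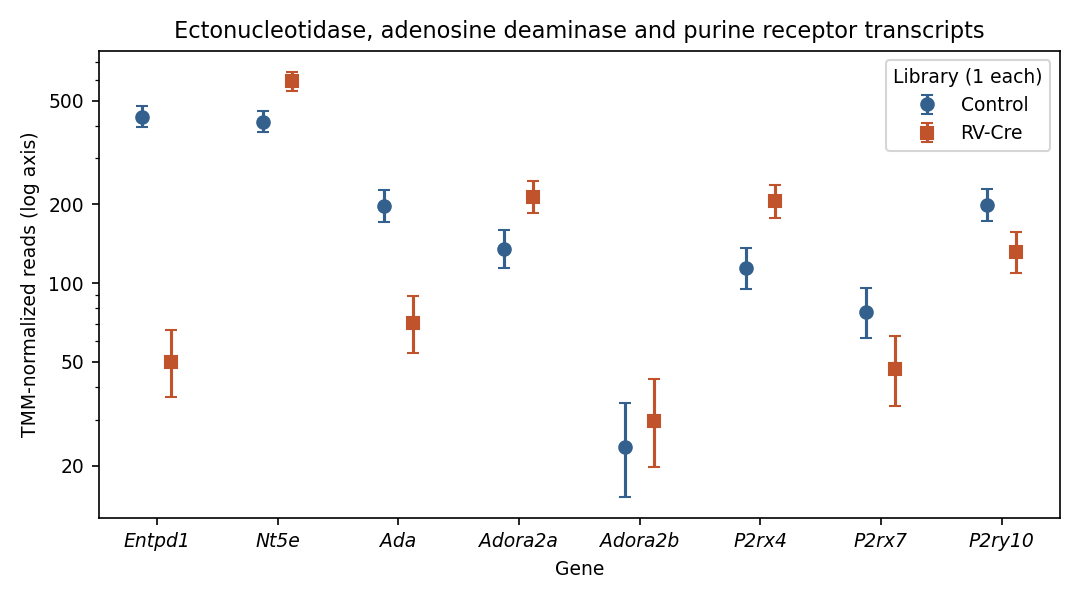
TMM-normalized reads of the 8 genes (vertical log axis) in the Control library (circles) and the RV-Cre library (squares), 1 library each, with exact Poisson 95% intervals for counting error. *Entpd1* stood at 434 and 49.9 and *Ada* at 198 and 70.1, whereas *Nt5e* stood at 415 and 592, and the intervals of *Adora2b* overlapped widely and those of *P2rx7* slightly.

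*Nt5e*, which acts on the product of CD39, had more reads in the RV-Cre library. It lies on chromosome 9 from 88327197 to 88372092 on the + strand and had 441 reads in Control cells and 557 in RV-Cre cells, or 415 and 592 normalized reads. The ratio was 1.43 with a 95% interval from 1.26 to 1.62, which is more than counting error and less than 2-fold. The unequal difference of these ectonucleotidases can be read without any scaling, from reads of the same library. The Control library held 1.05 reads of *Entpd1* for each read of *Nt5e*, and the RV-Cre library held 0.0844, a 12.4-fold difference with an exact 95% interval from 8.89 to 17.5. With 3′ reads, a count does not grow with transcript length.

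*Ada*, the enzyme that removes adenosine, was the other gene called lower. It lies on chromosome 2 from 163726584 to 163750239 on the - strand and had 210 and 66 reads in Control and in RV-Cre cells, or 198 and 70.1 normalized reads. It was 2.82-fold lower in the RV-Cre library, with a 95% interval from 2.13-fold to 3.78-fold, and 6.29% of the genes past the minimum had a lower log2 ratio. *Adk*, which encodes adenosine kinase and removes adenosine inside the cell by turning it into AMP, had 833 and 566 reads, a ratio of 0.767 with an interval from 0.688 to 0.854. Reads of *Ada* per read of *Adk* stood at 0.252 in Control cells and 0.117 in RV-Cre cells, a 2.16-fold difference with an interval from 1.60 to 2.95. *Dpp4*, whose product CD26 anchors adenosine deaminase on the cell surface, had 70 and 55 reads, and the ratio of 0.887 had an interval from 0.611 to 1.28, which holds 1.

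Both receptors for adenosine had more normalized reads in the RV-Cre library, and only for 1 of them was the difference beyond counting error. *Adora2a*, which encodes the high-affinity receptor of the pair, lies on chromosome 10 from 75316877 to 75334784 on the + strand. It had 144 reads in Control cells and 201 in RV-Cre cells, and the ratio was 1.58 with an interval from 1.27 to 1.96. *Adora2b*, which encodes the low-affinity one, lies on chromosome 11 from 62248984 to 62266453 on the + strand. It had 25 and 28 reads, a ratio of 1.26 with an interval from 0.710 to 2.26, so that a difference was not detectable at this depth. Reads of *Adora2a* per read of *Adora2b* were 5.76 and 7.18, and the interval of their ratio, from 0.666 to 2.32, holds 1. Scaled to *Gapdh*, *Adora2a* had a log2 ratio of 1.07 and would be called higher.

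The ATP-gated channels are neighbours on chromosome 5, with 16111 bases between them, and their ratios lay on opposite sides of 1, each beyond counting error. *P2rx7*, from 122643911 to 122691432 on the + strand, encodes a channel that opens at high ATP. It had 82 reads in Control cells and 44 in RV-Cre cells, and the ratio was 0.606 with an interval from 0.410 to 0.884. *P2rx4*, from 122707544 to 122729738 on the same strand, encodes a channel that opens at lower ATP. It had 121 and 194 reads, a ratio of 1.81 with an interval from 1.43 to 2.29. Neither reached the threshold of 2-fold, although *P2rx4* had a log2 ratio of 1.27 and would be called higher when scaled to *Gapdh*. Reads of *P2rx4* per read of *P2rx7* were 1.48 in Control cells and 4.41 in RV-Cre cells, a 2.99-fold difference with an interval from 1.90 to 4.72.

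*P2ry10* lies on the X chromosome from 107088492 to 107104974 on the + strand, in a stretch that also holds its paralog *P2ry10b* and *Gpr174*, which encodes another lysophosphatidylserine receptor. It had 212 reads in Control cells and 124 in RV-Cre cells, and the ratio was 0.660 with an interval from 0.525 to 0.828. *P2ry10b*, listed in the tables under its older symbol *A630033H20Rik* and lying 43952 bases further on, had 12 and 36 reads, a ratio of 3.39 with an interval from 1.72 to 7.15, and was called higher. It reached the minimum only in the RV-Cre library, so a lower call was not possible for it. *Gpr174* had 433 and 382 reads and a ratio of 0.996, with an interval from 0.865 to 1.15. Of the 2979 windows of 50 bases in the coding transcripts of *P2ry10*, 3.79% also occur in *P2ry10b*, so part of the reads of this pair could have been assigned to either. For *P2rx7* the share was 1.27%, all in *Mir8115*, for *P2rx4* 0.146%, and the other 5 genes shared 0 windows with another gene.

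All 8 genes passed the minimum, and of them 0 were called higher and 2 lower, beside 14.2% and 12.3% of all genes past the minimum. With only 8 genes nothing particular to the group is read from these counts. The median log2 ratio was -0.14 for the 8 genes and -0.01 for all genes past the minimum. The share of called genes varied with abundance. *Entpd1*, *Ada*, *Adora2a*, *P2rx4* and *P2ry10* lie among the 2858 genes whose log2 values averaged 6 to 8, of which 9.48% were higher and 14.5% lower. *Adora2b* and *P2rx7* lie among the 2008 genes whose values averaged 4 to 6, of which 28.8% were higher and 19.0% lower, and *Nt5e* lies from 8 to 10, where the shares were 4.05% and 8.6%. For all of the 8 genes but *Adora2b*, that is 7, the interval did not hold 1. Those of *Nt5e*, *Adora2a* and *P2rx4* lay above 1 and those of *Entpd1*, *Ada*, *P2rx7* and *P2ry10* below it. The share of all genes with such an interval was not computed, so nothing particular to the group is read from this count.

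**Figure D2:**
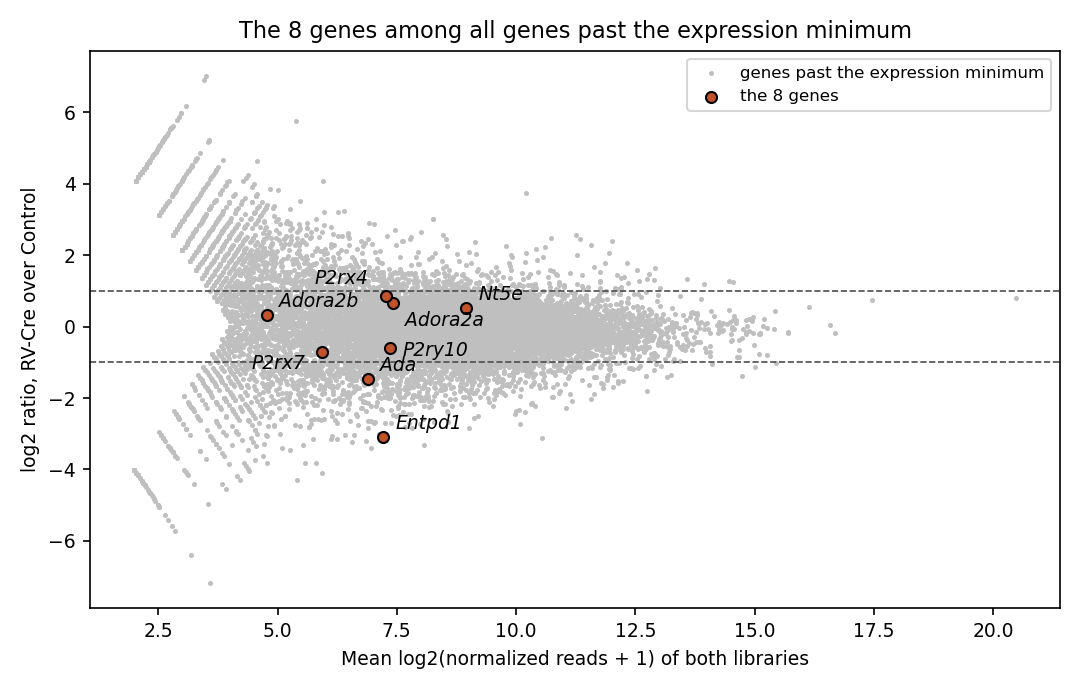
The log2 ratio of RV-Cre over Control (vertical axis) against the mean log2 value of both libraries (horizontal axis) for the 12112 genes past the minimum (grey) and the 8 genes (filled circles), with dashed lines at 2-fold. *Entpd1* at -3.09 lies near the lower edge of genes of like abundance, *Ada* at -1.48 lies below the lower line and the other 6 lie between the lines.

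The rest of the pathway was followed in 12 lists with 139 gene symbols, of which 137 were found. The minimum was passed by 101 genes, and 14 of these were called higher and 13 lower. These are 13.9% and 12.9% of them, near the 14.2% and 12.3% of all genes past the minimum, so the counts say nothing particular to the pathway. A gene that reaches the minimum in 1 library only can be called only towards that library. *P2ry6*, *Lpar4*, *P2ry10b*, *Gda* and *Epas1* reached it only in the RV-Cre library. When both libraries had to reach it, 9 pathway genes were higher and 11 lower, beside 758 and 1097 of all 10537 genes. Scaling to *Gapdh* raised the log2 ratios of all called genes. The 14 higher genes thus had to be called higher again, which is no check of them. Of the 13 lower genes only *Xkr8* and *Ak4* were again called lower, with log2 ratios of -1.22 and -1.51. Of the 9 other cell surface nucleotide enzymes that passed, 0 were higher and 4 lower, with a median log2 ratio of -0.79. None of these 4 was called under *Gapdh* scaling, where *Alpl* had a log2 ratio of -0.94 and *Acpp* of -0.92 and the others, *Bst1* and *Art2b*, did not reach the minimum. In the main setting *Bst1* and *Art2b* reached it only in the Control library, at 15.1 and 16.9 normalized reads. A higher call was thus not possible for *Bst1* and *Art2b*. The 4 lower genes included enzymes other than CD73 that can make adenosine from AMP at the cell surface. *Alpl*, which encodes an alkaline phosphatase, had 149 reads in Control cells and 51 in RV-Cre cells (ratio 0.386), and *Acpp*, which encodes prostatic acid phosphatase, had 112 and 39 reads (ratio 0.393) and was named after its values were seen. *Bst1*, an enzyme that cleaves extracellular NAD, had 16 and 0 reads, at least 4.73-fold lower when the 16 reads are taken as they stand and set against the 3 reads per library that a count of 0 allows. The exact interval, which also covers the counting error of the 16 reads, has its lower limit at 3.42-fold. *Art2b*, which encodes an ADP-ribosyltransferase that gates P2X7, had 18 and 3 reads, a ratio of 0.188 with an interval from 0.0355 to 0.644.

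The 4 intracellular members of the ENTPD family that passed were not called in either direction, and their log2 ratios ran from 0.18 to 0.81. *Cant1*, an intracellular nucleotidase of another family that was listed with them, had 647 and 714 reads and a ratio of 1.25. The other adenosine receptors and the other P2X channels did not pass the minimum, and the highest of them by reads were *Adora3* with 8 and 6 reads and *P2rx2* with 6 and 8 reads. Of the 3 P2Y nucleotide receptors that passed, *P2ry2*, a receptor for ATP and UTP, had 48 and 17 reads (ratio 0.400) and was lower, whereas *P2ry6*, a receptor for UDP, had 1 and 17 reads and was called higher, with a ratio of 19.2 and an interval from 3.01 to 802. *P2ry6* reached the minimum only in the RV-Cre library, so a lower call was not possible for it.

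**Figure D3:**
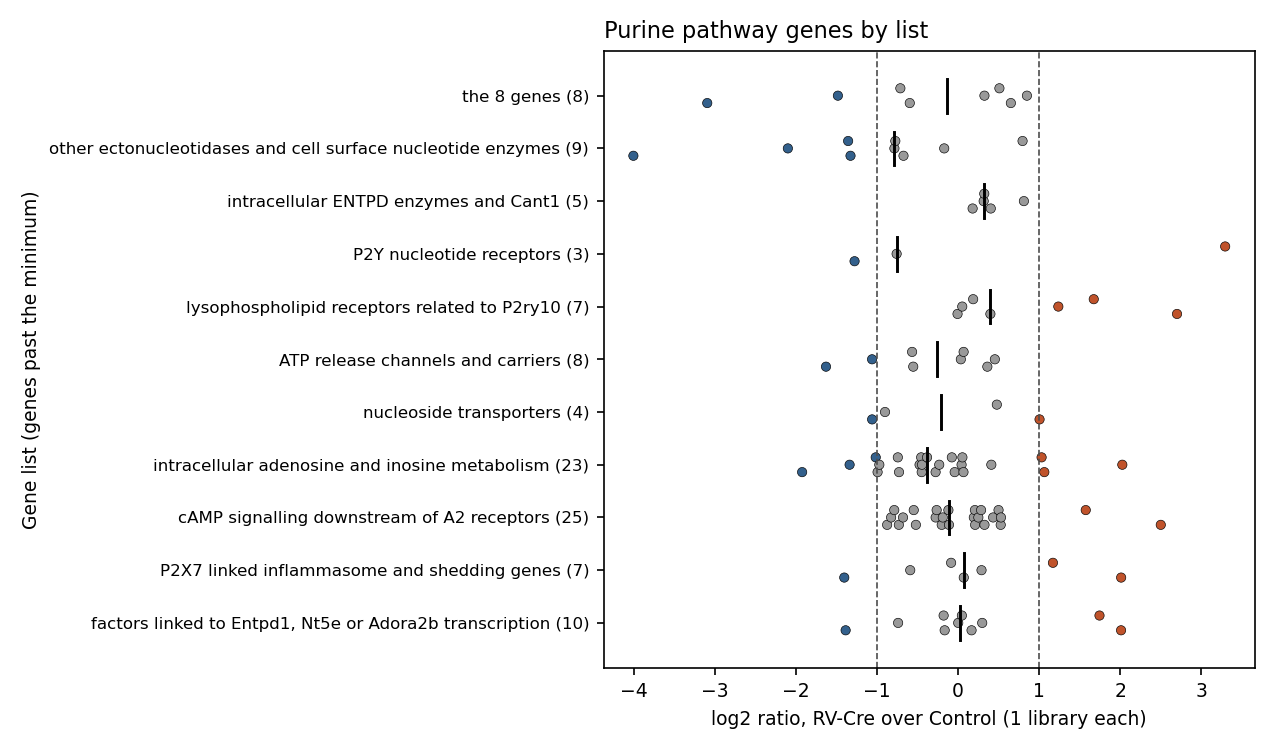
The log2 ratio of RV-Cre over Control (horizontal axis) for each gene past the minimum, by list (number of genes in brackets), with the median as a vertical bar, dashed lines at 2-fold, called genes in colour and genes not called in grey. Cell surface nucleotide enzymes lie mostly below 0 with a median of -0.79, and the 4 intracellular ENTPD genes and *Cant1* lie above 0. Genes that reached the minimum in 1 library only, such as *Bst1* and *P2ry6*, are included.

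Of the 7 lysophospholipid and related receptors that passed, 3 were higher and 0 lower. Besides *P2ry10b* these were *Lpar4*, a lysophosphatidic acid receptor, with 5 and 34 reads, and *Gpr183*, a receptor for oxysterols, with 244 and 511 reads and a ratio of 2.36. *Lpar4* and *P2ry10b* reached the minimum only in the RV-Cre library. *Gpr65*, a proton sensor with the most reads in this list, had 2179 and 2197 reads. Of the 8 genes in the list for ATP release that passed, 2 were lower. *Gja1*, which encodes connexin 43, had 173 and 73 reads (ratio 0.476). *Xkr8*, which encodes a scramblase rather than a channel or carrier of ATP, had 86 and 24 reads (ratio 0.315). *Panx1*, which encodes the pannexin channel that releases ATP, had 751 and 698 reads, a ratio of 1.05 with an interval from 0.945 to 1.16.

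Of the 4 nucleoside transporters that passed, 1 was higher and 1 lower. *Slc29a1*, which encodes the equilibrative transporter ENT1 of the cell surface, had 2173 and 923 reads (ratio 0.479) and was lower, whereas *Slc29a3*, which encodes a transporter of lysosomes, had 502 and 894 reads (ratio 2.01) and was higher. Of the 23 genes of intracellular adenosine and inosine metabolism that passed, 3 were higher and 3 lower, and the median log2 ratio was -0.38. The lower ones were *Ak4*, a mitochondrial adenylate kinase, with 384 and 89 reads (ratio 0.262), *Ahcy*, which splits S-adenosylhomocysteine into adenosine and homocysteine, with 1157 and 405 reads (ratio 0.395), and *Impdh2*, an enzyme of guanine nucleotide synthesis, with 1345 and 589 reads (ratio 0.494). The higher ones were *Gda*, guanine deaminase, with 10 and 39 reads, *Ak3* with 211 and 392 reads (ratio 2.10) and *Ampd3*, an AMP deaminase, with 21 and 39 reads. *Gda* reached the minimum only in the RV-Cre library.

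Downstream of the A2 receptors, 2 of the 25 genes of cyclic AMP signalling that passed were higher and 0 lower, with a median log2 ratio of -0.11. *Pde2a*, a phosphodiesterase that degrades cyclic AMP and cyclic GMP, had 98 reads in Control cells and 496 in RV-Cre cells, and the ratio was 5.71 with an interval from 4.59 to 7.17. *Akap13*, which encodes an anchoring protein for protein kinase A, had 3667 and 9687 reads (ratio 2.98), and *Gnai2*, which encodes an inhibitory G protein subunit and had the most reads in this list, had 8688 and 11088 reads (ratio 1.44). Of the 7 genes that passed in the list for the P2X7 channel, the inflammasome and shedding, 2 were higher and 1 lower. *Tmem63a* had 226 and 452 reads (ratio 2.26). The sources used here do not give its link to the inflammasome or to shedding. *Il1b*, which encodes a cytokine released after the inflammasome is activated, had 163 and 54 reads (ratio 0.374).

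Among 10 factors linked to the transcription of *Entpd1*, *Nt5e* or *Adora2b*, all past the minimum, 2 were higher and 1 lower, with a median log2 ratio of 0.02. *Gfi1*, a repressor, had 893 and 302 reads (ratio 0.382). *Tcf7*, which encodes TCF-1, had 142 and 424 reads (ratio 3.37) and *Epas1*, which encodes HIF-2α, had 9 and 35 reads (ratio 4.39). *Epas1* reached the minimum only in the RV-Cre library. *Stat3*, with the most reads in this list, had 8830 and 8782 reads, a ratio of 1.12 with an interval from 1.09 to 1.16. Exons of *Gfi1* and *Stat3* overlap genes on the opposite strand, as do those of *Dpp4*, *Bst1*, *Slc29a1*, *Impdh2*, *Ak3*, *Ampd3*, *Tmem63a*, *Il1b* and *Gpr65*. Those of *Csf1r*, *Alas2* and *Gapdh* do so as well. On the same strand, exons of *Ampd3*, *Pde2a*, *Adora3* and *P2rx7* overlap another gene, which for *P2rx7* is *Mir8115*. No source states whether strand was used in counting, so part of these reads is uncertain.

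**Figure D4:**
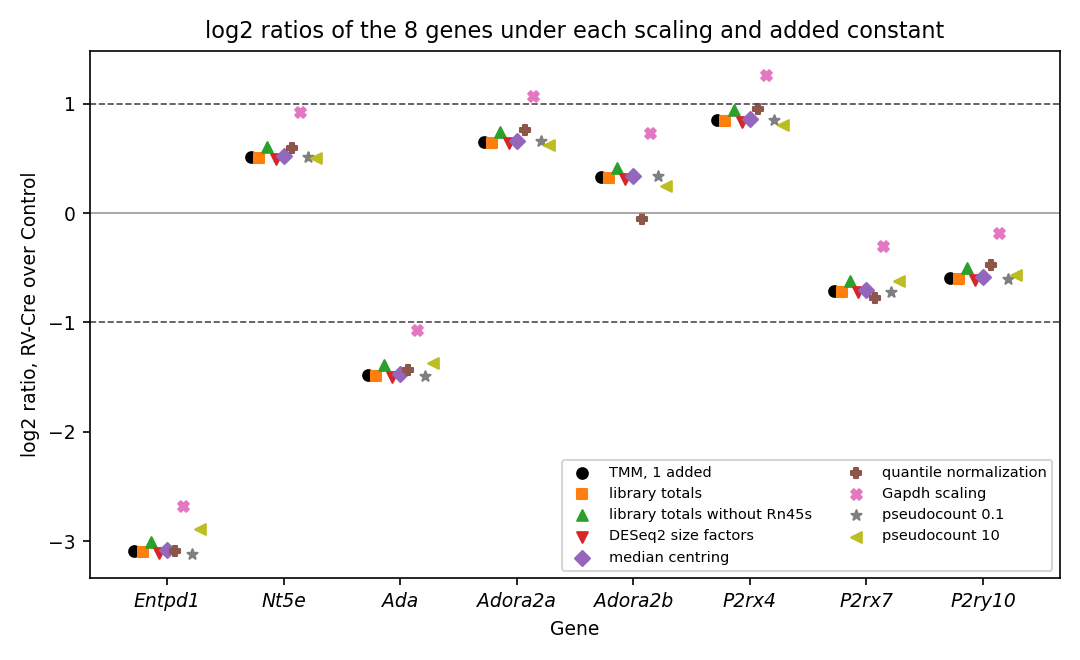
The log2 ratio of the 8 genes (vertical axis) under TMM scaling with 1 added and under 8 other scalings or added constants (marker shapes), with dashed lines at 2-fold. *Entpd1* stayed between -3.12 and -2.68 and *Ada* between -1.50 and -1.07, below the lower line in each setting, whereas *Adora2b* lay on both sides of 0.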

How the data were processed

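RNA of sorted GFP+ Th17 cells was sequenced by the authors as 1 Control and 1 RV-Cre library, made from 500 ng of total RNA with a QuantSeq 3′ kit. The authors deposited raw read counts per gene symbol, without normalization. The submitters' processing notes name bcl2fastq 2.20.0.422, Bowtie2, bedtools and the build mm10, while the annotation, read filters and strand setting are not given in the sources used here. Of the 23282 gene rows, 79 share a symbol with another row, and none of these is a listed gene.

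Counts were scaled with TMM in edgeR 4.0.16 (R 4.3.3), which gave size factors of 1.06 (Control) and 0.941 (RV-Cre). Genes were compared on the log2 scale after 1 was added to normalized reads, for genes with at least 15.0 normalized reads in 1 library. No test was possible with 1 library per condition. Intervals came from scipy 1.17.1. Reads carry no molecular identifiers, so copies of 1 molecule may be counted as separate reads. Both these intervals and the 3 reads set as the limit behind a 0 describe counting error of reads alone. They may be too narrow for molecules. Positions, overlaps and shared windows came from GENCODE M21, and gene names from RefSeq GRCm38.p6, both of the GRCm38 (mm10) assembly. Depth set the precision, and *Adora2b*, with 25 and 28 reads, had an interval of the ratio from 0.710 to 2.26.

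The 8 genes, lists, alternatives and the rule for named genes were chosen with earlier results of these data known. The rule names the 8 genes, *Ptk2*, *Adk*, *Gpr174*, *P2ry10b*, *Dpp4*, up to 3 called genes in each direction and the gene of most reads of each pathway list, and the marker of most reads of each other cell type. Some genes that the rule names are not reported here. The promoter motifs, the ratios of reads between genes and the markers named for having 0 reads or for their calls were chosen after values were seen. The calls and intervals were tested on simulated data. Alternatives were other scalings (library totals with and without *Rn45s*, centring on the median, size factors of DESeq2 1.42.0, quantiles with limma 3.58.1, *Gapdh*), added constants, expression minimums, fold thresholds and a 99% interval.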

Additional observations from a re-analysis of the deposited data

How the results depend on the processing

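No paired analysis was possible because Control and RV-Cre cells gave 1 library each, and for the same reason no library could be left out. Under 8 other scalings or added constants, the log2 ratios of *Entpd1*, *Ada*, *P2rx7* and *P2ry10* stayed below 0 and those of *Nt5e*, *Adora2a* and *P2rx4* above 0. *Adora2b* ran from -0.05 with quantile normalization to 0.73. Scaling to *Gapdh*, which itself had a log2 ratio of -0.42, raised all of them, so that *Entpd1* stood at -2.68, *Nt5e* at 0.93, *Ada* at -1.07, *Adora2a* at 1.07, *P2rx4* at 1.27, *P2ry10* at -0.18 and the median of the 8 genes at 0.27. With it 2 of the 8 genes were at least 2-fold higher, and of the wider pathway 2 genes were lower in place of 13. Of all 12181 genes past the minimum with *Gapdh* scaling, 2960 were higher and 780 lower, so these counts are not read as particular to the genes. This scaling moved the median log2 ratio of all genes past the minimum to 0.43. The share of higher genes among called genes went from 53.6% to 79.1%. Without *Rn45s* that share was 60.2%, with a log2 minimum of 6 it was 40.8% and 40.9% when both libraries had to reach 4. Over all genes past the minimum, 1720 were higher and 1491 lower in the main setting, 3265 and 2441 with no minimum, 734 and 1067 with a log2 minimum of 6, 758 and 1097 when both libraries had to reach 4, 2847 and 2777 at 1.5-fold, and 1008 and 669 at 3-fold. With a 1.5-fold threshold, 2 of the 8 genes were higher and 4 lower, and 29 genes of the wider pathway were lower. With a 3-fold threshold, 1 of the 8 was lower, and 8 genes of the wider pathway were higher and 4 lower. Of the wider pathway, 14 genes were higher in the main setting, 25 with no minimum, 8 with a log2 minimum of 6 and 9 when both had to reach 4, since these settings count more or fewer genes of few reads. With a 99% interval, 7 of the 8 genes still excluded a ratio of 1, and the share of all genes that did so was not computed. The median of the 8 genes, -0.14, stood at -0.60 with a log2 minimum of 6, which leaves out *Adora2b*. In alternatives chosen after seeing the data, the log2 ratio of the summed myeloid markers went from 1.44 to 0.05 without *Marco* and *Csf1r*, and that of the dendritic cell markers from 0.71 to -0.042 without *H2-Ab1*. The remaining log2 ratios of single genes stayed within their counting intervals and the remaining counts within 1.5 times.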
